A study of Saccharomyces cerevisiae with 16 samples.

Results

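HSC82 and HSP82, the genes of the yeast Hsp90 chaperones, and HSP104, the gene of the Hsp104 disaggregase, were described in PSI-seq counts from Saccharomyces cerevisiae. These are 3 genes among 6021 annotated protein-coding genes, and they were chosen as intervals of the listed positions, which are on build sacCer3 per the submitters' processing notes. HSC82 (YMR186W) was taken as positions 632300 to 634550 of chromosome 13, HSP82 (YPL240C) as 96400 to 98750 of chromosome 16, and HSP104 (YLL026W) as 88550 to 91450 of chromosome 12. The intervals held 2225, 2265 and 2839 of the 5704895 listed positions, and each covers the coding sequence with its flanks. HSC82 and HSP104 lie on the forward strand and HSP82 on the reverse strand.

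PSI-seq maps pseudouridine, an isomer of uridine, through a carbodiimide reagent, CMCT, whose adduct on pseudouridine stops reverse transcription, so that reads pile up at the stop. All samples were strain BY4741, a laboratory haploid of mating type a, grown in rich medium, and its poly(A) RNA was used as natural RNA. The 4 experiments were heat shock (45 °C for 30 min), stationary phase (optical density 4 in the labels), and log phase (0.8) sampled from each of 2 cultures, called pre-HS log phase and pre-stat log phase here after the treatment that each culture went on to. In every experiment natural RNA and RNA transcribed in vitro (IVT) from amplified cDNA, which carries no natural modification, were each split into a +CMCT part and a mock-treated −CMCT part. This gives 16 libraries, 1 for each combination, with 3925245 to 25759455 reads as listed. Heat shock and stationary phase have 1 culture each, and the +CMCT and −CMCT libraries of an experiment are treatments of 1 RNA, not replicates. Since single libraries stand for most conditions, values below are given library by library. All levels are shares of a library's reads, so fewer transcripts of a gene and more transcripts of other genes cannot be told apart.

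Hsp90 is an ATP-driven dimeric chaperone that matures kinases, receptors and other client proteins with the help of co-chaperones. In yeast it is encoded by a nearly identical gene pair, of which HSC82 is known as the more constitutive copy and HSP82 as the more heat-inducible one. Hsp104 is a hexameric AAA+ ATPase that pulls proteins out of aggregates together with the Hsp70 system, and its mRNA is known to be strongly induced by heat. Their transcription is driven largely by the heat shock factor Hsf1 and, for part of the set, by the stress regulators Msn2 and Msn4.

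Before the members are described, the labels were checked against the data. HSP26, a small heat shock protein gene that is a classical heat-induced transcript, had 141 and 105 RPM (reads-per-million of the reads listed for a library) in the natural +CMCT and −CMCT libraries labelled heat shock, against 8201 and 7339 in those labelled pre-HS log phase and 103 and 105 in those labelled pre-stat log phase. SSA4, a strictly stress-induced Hsp70 gene, had 55.1 and 54.9 RPM in the heat shock libraries, against 2023 and 2073 in the pre-HS and 62.3 and 55.0 in the pre-stat log-phase libraries. The levels thus go against the labels, since the known heat-induced transcripts were highest in log-phase libraries. In IVT RNA the pre-HS +CMCT library shared this pattern, with 15330 RPM on HSP26, while its −CMCT partner had 122. Whether samples or columns were exchanged was not tested. The labels were kept as given, no library was moved to another group, and the tests of the members are given with and without the pre-HS experiment. As a check of the strain, URA3, which is deleted in BY4741, had 0 natural reads in every experiment, and the deleted genes LEU2 and MET17 (MET15) had 6 natural reads each, all in the heat shock −CMCT library. STE2, the receptor gene of mating type a, had 266 natural RPM in heat shock and 18.5 in stationary phase, against 27.1 in pre-HS and 290 in pre-stat log phase, and STE3, its counterpart of mating type alpha, had 4.36 and 2.99, against 16.2 and 5.19.

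The Hsp90 gene HSC82 was most abundant in the pre-HS log-phase libraries and least abundant in stationary phase. It had 2130 RPM in the natural +CMCT and 1830 in the natural −CMCT library of heat shock. In stationary phase it had 355 and 456, against 5905 and 5543 in pre-HS log phase and 1687 and 1720 in pre-stat log phase. The heat shock libraries therefore lay between both log-phase cultures, and the stationary libraries lay below all others. With +CMCT and −CMCT reads summed, HSC82 in heat shock was at 0.349 of its level in pre-HS log phase and at 1.18 of its level in pre-stat log phase. In stationary phase it was at 0.0644 and 0.218 of these levels. With library totals that take positions of equal counts once, these became 0.123 and 0.436.

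The heat-inducible copy HSP82 varied in another way. It had 569 and 519 RPM in the natural +CMCT and −CMCT libraries of heat shock. It had 420 and 466 in stationary phase, against 5690 and 5383 in pre-HS log phase and 525 and 669 in pre-stat log phase. The heat shock and pre-stat libraries overlapped, the stationary libraries lay below both, and the pre-HS libraries stood far above the rest. The heat shock level was 0.0988 of that in pre-HS log phase and 0.964 of that in pre-stat log phase. The stationary level was 0.0768 and 0.749 of them. The order against pre-stat turned with the library total: with positions of equal counts taken once, HSP82 had 1305 and 1326 RPM in stationary phase, against 812 and 1008 in pre-stat log phase, and its stationary level was at 0.147 of pre-HS and 1.499 of pre-stat.

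HSP104, the disaggregase, had 267 and 236 RPM in the natural +CMCT and −CMCT libraries of heat shock. It had 601 and 567 in stationary phase, against 3224 and 2921 in pre-HS log phase and 320 and 272 in pre-stat log phase. Its stationary level was 1.95-fold that in pre-stat log phase and 0.193 of that in pre-HS log phase, and 3.90-fold and 0.368 with positions of equal counts taken once. In heat shock it was at 0.0823 of its pre-HS level and 0.834 of its pre-stat level.

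**Figure D1:**
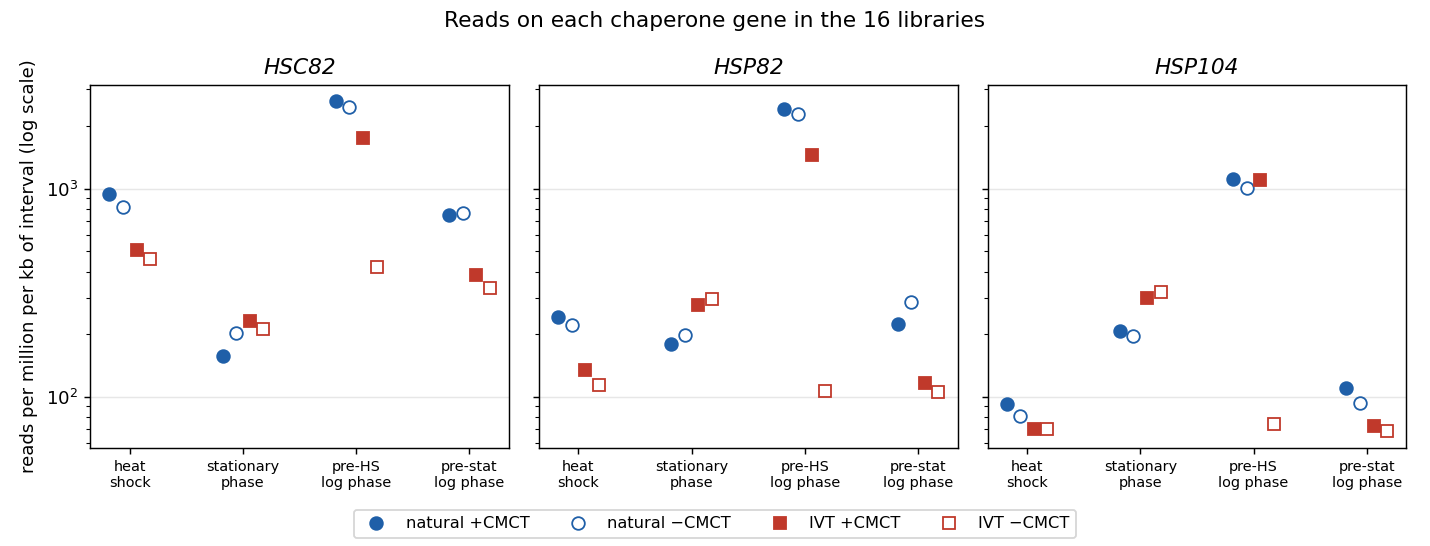
RPM per kb of interval (log axis) on HSC82, HSP82 and HSP104, with 1 point per library, for natural RNA (circles) and IVT RNA (squares), with CMCT (filled) and without (open). The pre-HS log-phase points are the highest of each gene, except for the IVT −CMCT library, which lies near the heat shock and pre-stat IVT libraries.

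These differences were tested by edgeR's quasi-likelihood test over 5883 genes, with the natural +CMCT and −CMCT reads of an experiment summed into 1 sample. There were thus 2 log-phase samples, 1 heat shock and 1 stationary sample, and a single residual degree of freedom. No member passed in either comparison. For heat shock over log phase the fitted log2 fold change was -0.79 for HSC82 (standard error 0.82), -2.40 for HSP82 (1.35) and -2.66 for HSP104 (1.45), each with an adjusted p of 1.00. In this comparison 0% of all genes were called higher and 0% lower (4 and 7 genes had an unadjusted p under 0.05, and DESeq2 also called 0). For stationary phase over log phase the log2 fold change was -2.06 for HSC82 (0.88, adjusted p = 0.318), -1.60 for HSP82 (1.29, adjusted p = 0.535) and -0.27 for HSP104 (1.27, adjusted p = 0.929). Of all genes, 1.41% were called higher and 0.085% lower there. Without the pre-HS culture, which leaves 1 sample per condition and no test, the heat shock values became 0.45, 0.16 and -0.05, and the stationary values -0.81, 0.97 and 2.35, for HSC82, HSP82 and HSP104 in this order. Without the pre-stat culture the heat shock values were -1.46, -3.28 and -3.54, and the stationary values -2.73, -2.48 and -1.15. The sign thus changed with the log-phase culture that was left out for HSC82 and HSP82 in heat shock and for HSP82 and HSP104 in stationary phase.

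The difference between both log-phase cultures was itself large at the members. With 1 RPM added, natural levels in pre-HS log phase were 3.39-fold those in pre-stat log phase for HSC82, 9.74-fold for HSP82 and 10.1-fold for HSP104. Among all 5883 genes 8.41% were at least 2-fold higher in pre-HS, and 186 genes had a fold as high as HSC82, 33 as high as HSP82 and 29 as high as HSP104, each count including the gene itself. The median gene was at 0.887. There is 1 culture on each side, so this is a description of the cultures with no replicate check.

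The balance within the Hsp90 pair differed between the experiments. Per kb, HSP82 was at 0.256 and 0.272 of HSC82 in the natural +CMCT and −CMCT libraries of heat shock. In stationary phase the ratio was 1.13 and 0.979, against 0.923 and 0.930 in pre-HS log phase and 0.298 and 0.372 in pre-stat log phase. The pair was therefore near parity in the stationary and pre-HS libraries, while HSC82 was ahead by more than 2-fold in heat shock and pre-stat. Leaving out positions whose counts are the same at both genes gave 0.225 and 0.237, 1.20 and 1.02, 0.960 and 0.968, and 0.275 and 0.343 in the same order. HSP104 per kb was at 0.0974 and 0.100 of HSC82 in heat shock and at 1.31 and 0.966 in stationary phase. It was at 0.424 and 0.409 in pre-HS and 0.147 and 0.123 in pre-stat log phase.

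Ordered by RPM per kb, HSC82 led, HSP82 followed and HSP104 was last in 13 of the 16 libraries. The exceptions were stationary. There HSP104 led in the natural +CMCT library with 207, against 179 for HSP82 and 158 for HSC82, and in both IVT libraries. In the natural −CMCT library of stationary phase the 3 genes had 202, 198 and 195, an order within the spread between the paired libraries. In pre-HS log phase HSC82 and HSP82 had 2623 and 2420 with CMCT and 2462 and 2290 without, so both HSC82 libraries lay above both HSP82 libraries, by little more than the libraries of a pair differed. The counting error of a gene's level was 0.550% to 3.57% of its value, which leaves out the spread between cultures.

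In IVT RNA the same genes were read from amplified copies, and the +CMCT and −CMCT libraries of an experiment should hold the same mixture. For HSC82 they had 1140 and 1031 RPM in heat shock, 522 and 477 in stationary phase and 863 and 750 in pre-stat log phase. In pre-HS log phase they had 3937 and 945. HSP82 had 316 and 269 in heat shock, 648 and 693 in stationary phase and 273 and 247 in pre-stat log phase, but 3412 and 250 in pre-HS log phase. HSP104 had 203 and 203, 861 and 922, and 210 and 199 in the same order, and 3206 and 214 in pre-HS log phase. Outside pre-HS the paired IVT libraries differed by at most 1.18-fold at the members, and in pre-HS by 4.17-fold, 13.6-fold and 14.98-fold for HSC82, HSP82 and HSP104. Natural pairs differed by 0.778-fold to 1.18-fold. Every ratio that uses the pre-HS IVT −CMCT library is affected by this, as given again below.

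Transcripts with the levels most like the members were sought among 5095 genes, by Pearson's r of log2(RPM + 1) over the 8 natural libraries, which come in pairs of 1 RNA. For HSC82 these were YOL014W (r = 0.999), ENO1 (0.997), an enolase of glycolysis, and TPO1 (0.996), a polyamine transporter. For HSP82 they were HSP60 (0.996), the mitochondrial chaperonin, MSC1 (0.996) and FMS1 (0.995), a polyamine oxidase. For HSP104 they were HSP31 (0.996), a stress-induced chaperone of the DJ-1 family, TFS1 (0.996), an inhibitor of carboxypeptidase Y, and PHM7 (0.996). Among the members, HSP82 and HSP104 had r = 0.908, HSC82 and HSP82 0.811, and HSC82 and HSP104 0.503. None of these correlations was tested.

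The co-chaperones of Hsp90 divided into a part that was high in pre-HS log phase and a part that was not. CPR6, a cyclophilin that binds Hsp90, had 207 natural RPM in heat shock and 90.6 in stationary phase, against 1840 in pre-HS and 228 in pre-stat log phase. STI1, the adaptor between Hsp70 and Hsp90, had 64.3 and 99.2, against 453 and 114. The ATPase activator AHA1 had 70.3 and 56.6, against 314 and 85.8, and its relative HCH1 had 111 and 19.8, against 424 and 97.8. CDC37, which delivers kinases to Hsp90, had 103 and 19.8, against 125 and 114. SBA1, the yeast p23 protein, had 44.6 and 26.0, against 71.5 and 80.9. Of 12 co-chaperones 4 were at least 2-fold higher in pre-HS than in pre-stat log phase, beside the 8.41% of all genes. In the test 0 of 12 passed in either comparison, with a median log2 fold change of -0.13 for heat shock and -0.46 for stationary phase, against -0.03 and -0.05 over all genes. Without the pre-HS culture, as values with no test, the medians were 0.00157 and -0.10.

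In the Hsp70 system and the small heat shock proteins, which work with Hsp104 on aggregates, 11 of 13 genes were highest in pre-HS log phase. The same was true of 32.9% of all genes. SSA1 and SSA2, cytosolic Hsp70 genes, had 988 and 1063 RPM in heat shock and 307 and 137 in stationary phase, against 5604 and 4918 in pre-HS and 1208 and 1307 in pre-stat log phase. They are near-identical copies, so their reads cannot be fully told apart. SSB1 and SSB2, ribosome-bound Hsp70 genes that are known to be shut down by stress, ran the other way. They had 2411 and 2254 in heat shock and 84.3 and 96.0 in stationary phase, against 438 and 455 in pre-HS and 2021 and 1885 in pre-stat log phase. SSA3, the Hsp70 gene known for stationary-phase expression, had 12.7 in heat shock and 97.1 in stationary phase, against 163 and 14.0. Of the 13 genes 9 were at least 2-fold higher in pre-HS than pre-stat log phase, beside 8.41% of all genes. In the test 0 of 13 passed in either comparison. Median log2 fold changes were -1.45 for heat shock and -1.88 for stationary phase, against -0.03 and -0.05 over all genes. Without the pre-HS culture they were -0.08 and -0.46, against -0.01 and 0.005 over all genes.

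Chaperones of organelles were highest in pre-HS log phase in 9 of 9 cases, as were 32.9% of all genes. Of the 9 chaperones 5 were at least 2-fold above pre-stat, beside 8.41% of all genes. HSP78, the mitochondrial relative of Hsp104, had 74.0 in heat shock and 77.7 in stationary phase, against 718 and 83.0 RPM in pre-HS and pre-stat log phase. KAR2, the Hsp70 of the endoplasmic reticulum, had 395 and 126, against 2423 and 374. Here too 0 of 9 passed in either comparison, with medians of -0.98 and -1.12, against -0.03 and -0.05 over all genes. Without the pre-HS culture the medians were 0.00777 and -0.12, against -0.01 and 0.005 over all genes. Of 5 transcripts commonly used as references 0 were at least 2-fold higher in pre-HS. ACT1, the actin gene, had 724 in heat shock and 86.7 in stationary phase, against 685 and 715 in the log-phase cultures.

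Along the transcripts, reads of stationary RNA lay near the 3′ end. The third of the annotated HSC82 gene at its 3′ end held 83.0% and 86.0% of the gene's reads in the natural +CMCT and −CMCT libraries of stationary phase. It held 37.2% to 42.8% in the natural libraries of the other 3 experiments. For HSP82 it held 77.7% and 81.5%, beside 38.2% to 44.0% elsewhere. For HSP104, the longest member, it held 93.9% and 92.9%, beside 39.1% to 54.7%. This was not particular to the members. Over 1636 genes with at least 500 natural reads in stationary phase the third at the 3′ end held a median of 69.8% (quartiles 53.1% and 82.0%), and medians were 36.2% to 37.9% in the other natural experiments. Levels in stationary phase therefore came mainly from the 3′ end, and fewer transcripts and shorter recovered fragments cannot be told apart by the sums.

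Reads of the other experiments spread over the whole interval with local peaks. In HSP82 the window of 100 nt with most natural reads held 17.6% in heat shock (1901 to 2000 nt from the 5′ end). It held 11.3% in pre-HS (the same window) and 24.0% in pre-stat log phase (401 to 500 nt). These windows contain positions 96797 to 96837 and 98273 to 98315, where many counts equal those of HSC82. Part of these reads therefore cannot be assigned to HSP82. In HSC82 the highest windows held 10.5% to 11.2% in these 3 experiments and 20.7% in stationary phase. In HSP104 they held 6.03% to 9.81%, and 29.0% in stationary phase.

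**Figure D2:**
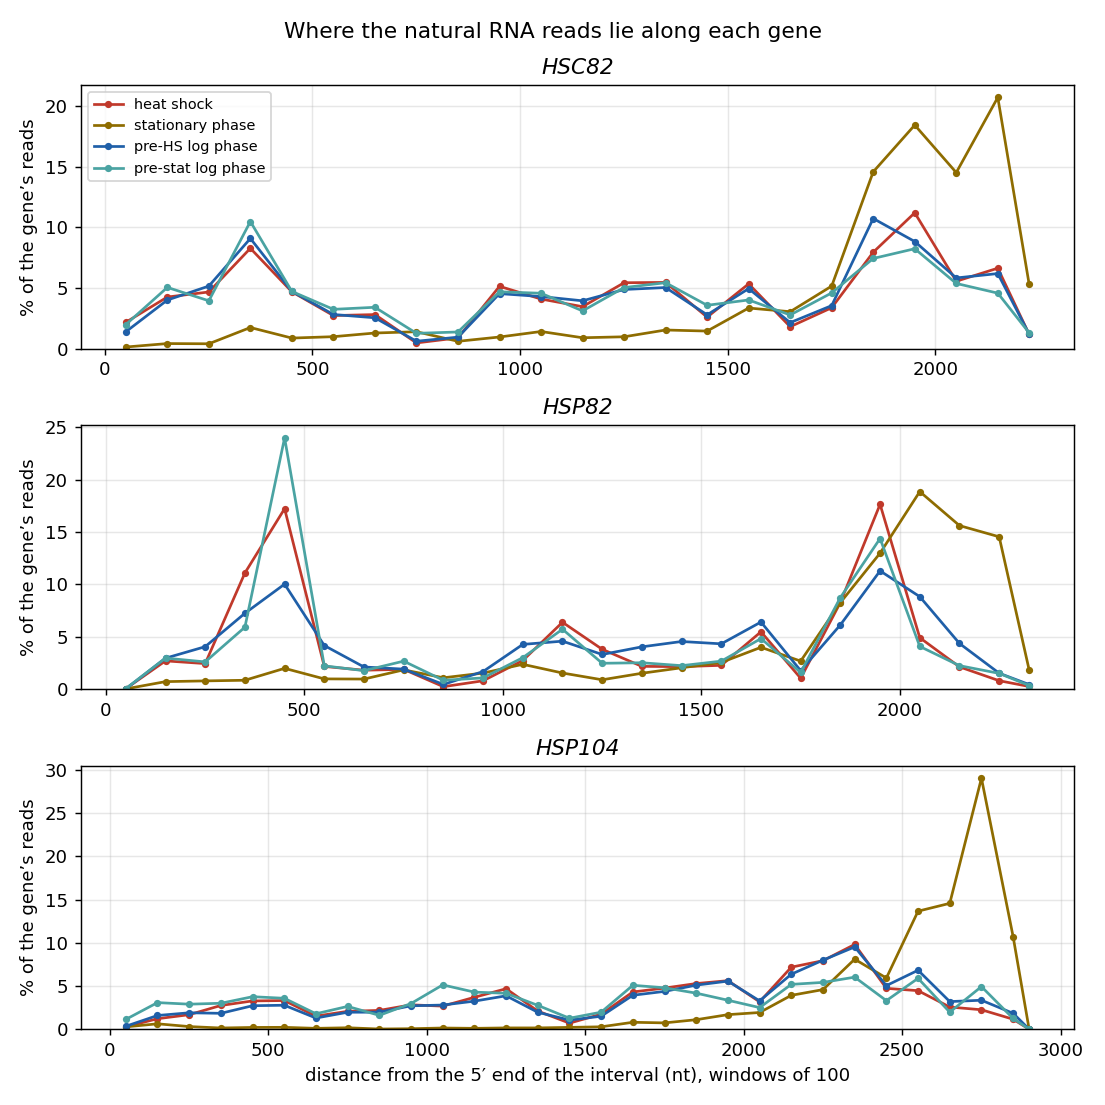
Share of each gene's natural RNA reads (y axis, percent, +CMCT and −CMCT summed) in windows of 100 nt by distance from the 5′ end of its interval (x axis, nt), with 1 line per experiment. The last window of each gene is shorter than 100 nt. Stationary phase peaks near the 3′ end of all 3 genes, while the other experiments spread over the whole interval.

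Since HSC82 and HSP82 are nearly identical, part of their reads fits both. Of 1942 HSC82 positions and 1599 HSP82 positions with at least 20 reads over all libraries, 83 pairs had the same counts in all 16 libraries. They carried 15663 reads, which is 6.77% of the HSC82 reads and 11.1% of the HSP82 reads. Every pair lay at mirrored positions, as genes on opposite strands would give, with position sums of 730979 (33 pairs) and 730967 (50 pairs). The longest stretch ran over HSC82 positions 634130 to 634170, paired with HSP82 positions 96797 to 96837, with 40 equal pairs and 9670 reads. The next ran over 632664 to 632706, paired with 98273 to 98315, with 17 pairs. A further 116 mirrored pairs with at least 20 reads differed by more than 0 but by at most 10% of their reads summed over libraries. HSP104 had 0 of 668 positions with at least 50 reads that were equal to any other listed position, while HSC82 had 75 of 1446 and HSP82 75 of 897.

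Positions with at least 20 natural reads in an experiment were ranked by log2((+CMCT + 1)/(−CMCT + 1)). The ratio uses raw reads, so it shifts with the totals of the paired libraries, whose log2 ratio was 0.54 in heat shock, 2.47 in stationary phase, 0.41 in pre-HS and 1.17 in pre-stat log phase. A log2 ratio of 2 or more, a 4-fold excess, was counted as high. In heat shock 128 of 940 HSC82, 15 of 164 HSP82 and 2 of 9 HSP104 positions were high, beside 9.88% of 110825 ranked positions. The latter are all positions of the table with at least 20 reads, with positions of equal counts taken once. In stationary phase the counts were 79 of 145, 104 of 158 and 170 of 234, beside 66.3%. In pre-HS log phase they were 114 of 983, 108 of 934 and 37 of 375, beside 8.9%, and in pre-stat log phase 170 of 575, 21 of 117 and 2 of 23, beside 27.0%. The shares of HSC82 ran from 11.6% to 54.5%, those of HSP82 from 9.15% to 65.8% and those of HSP104 from 8.70% to 72.6%, on both sides of the share over all positions, with the widest departures where HSP104 had 9 and 23 ranked positions. They are no result about these genes. HSP104 had 9 ranked positions in heat shock and 375 in pre-HS log phase.

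IVT RNA, which should have no pseudouridine, also gave high ratios. In heat shock 113 of 330 HSC82 and 25 of 63 HSP82 positions were high, beside 28.4% of all ranked positions. No HSP104 position had enough reads there. In stationary phase 2 of 135, 0 of 204 and 1 of 298 were high, beside 0.245%. In pre-stat log phase 43 of 107, 9 of 21 and 1 of 5 were high, beside 38.8%. In pre-HS log phase 317 of 409 HSC82, 254 of 274 HSP82 and 208 of 208 HSP104 positions were high, beside 37.9%. The members' medians there were 2.87, 3.92 and 4.46, beside 1.32 over all positions. These are the IVT libraries whose RPM on the members differed by 4.17-fold to 14.98-fold, so the ratios of single positions carry that difference.

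**Figure D3:**
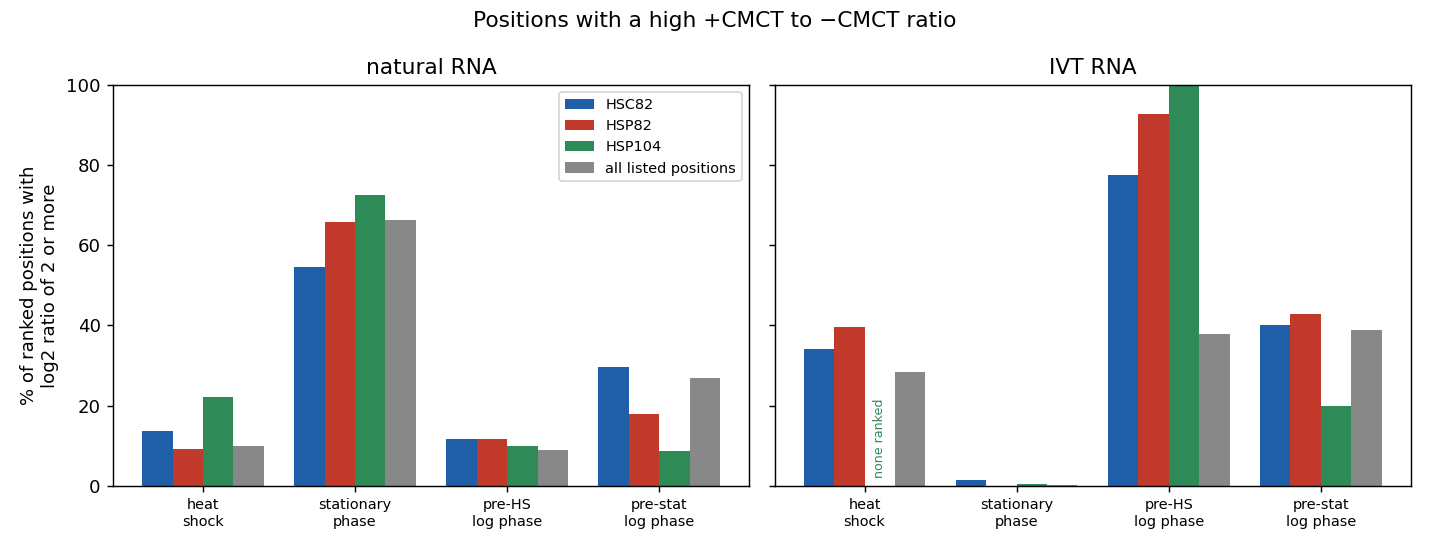
Share of ranked positions (y axis, percent) with a log2 ratio of +CMCT to −CMCT reads of 2 or more in natural RNA (left) and IVT RNA (right), for HSC82, HSP82, HSP104 and all listed positions, by experiment. In natural RNA the members lie on both sides of the grey bars of all positions. In IVT RNA they exceed the grey bars most in pre-HS log phase, where HSP104 reaches 100%.

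The HSC82 position 632425 of chromosome 13 is a candidate site of the study, named because of its natural ratios in these libraries, so that its natural values are a description. It had 75 +CMCT and 3 −CMCT reads in heat shock, a log2 ratio of 4.25 at rank 4 of 940 HSC82 positions. In stationary phase it had 2 and 0 reads, too few to rank. In pre-HS log phase it had 25 and 4 reads, a log2 ratio of 2.38 at rank 46 of 983, and in pre-stat log phase 45 and 0, a log2 ratio of 5.52 at rank 2 of 575. The site was thus high in 3 of the 3 experiments with enough reads, but lower in pre-HS, where HSC82 was most abundant. Among all ranked positions of the table, 0.181%, 4.52% and 0.179% had a ratio at least as high in heat shock, pre-HS and pre-stat log phase. The +CMCT library held 96.2% of the reads at the site in heat shock (exact 95% interval 89.2% to 99.2%), 86.2% in pre-HS (68.3% to 96.1%) and 100% in pre-stat log phase (92.1% to 100%). The same libraries held 59.3%, 57.04% and 69.2% of all reads of their pairs. These intervals cover counting error alone. They are no test against the library shares, since natural ratios in these libraries chose the site.

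In IVT RNA the site had 9 +CMCT and 2 −CMCT reads in heat shock, 0 and 3 in stationary phase, 7 and 4 in pre-HS and 15 and 1 in pre-stat log phase. None of these reaches 20 reads, and the pre-stat log2 ratio was 3. The neighbouring position 632424 had 22 and 4 natural reads in heat shock, 19 and 4 in pre-HS and 16 and 0 in pre-stat log phase. Its IVT reads were 15 and 1 in heat shock, 0 and 0 in stationary phase, 6 and 2 in pre-HS and 0 and 2 in pre-stat log phase. The site had no equal partner in HSP82. The mirrored HSP82 position 98554 had 9 and 5 natural reads in heat shock and 14 and 0 in stationary phase, 24 and 4 in pre-HS and 14 and 0 in pre-stat log phase. Its pre-HS reads were near those of the HSC82 site, while its reads in the other experiments were not. Only in pre-HS did the mirrored position have enough reads to be ranked, and its ratio there was high as well.

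**Figure D4:**
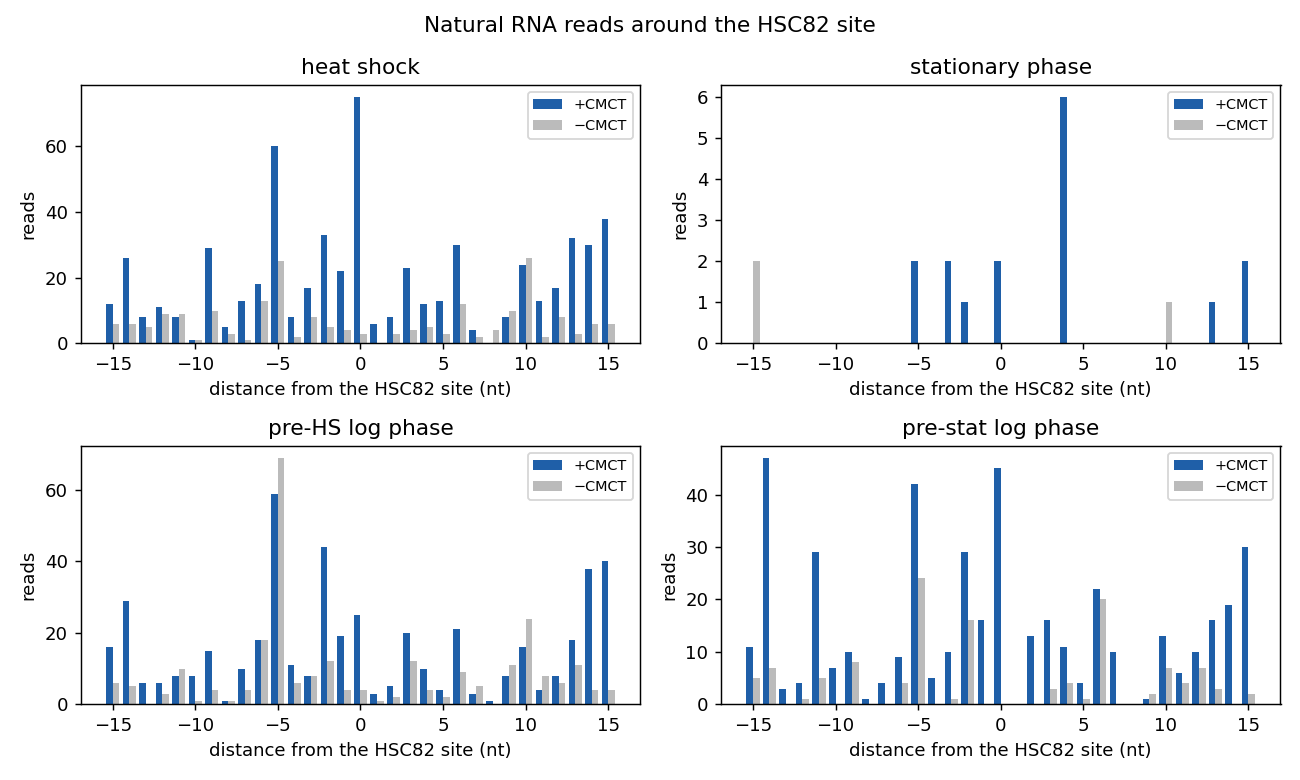
Natural RNA reads (y axis, reads, with a scale of its own in each panel) by distance from the HSC82 site (x axis, nt) in the 4 experiments, +CMCT beside −CMCT. At distance 0 the +CMCT bar stands at 75, 2, 25 and 45 reads in heat shock, stationary, pre-HS and pre-stat log phase, over 3, 0, 4 and 0 −CMCT reads.

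Other positions ranked as high as this site. The top HSC82 ratios of heat shock were at 632503 and 632973, each with 21 +CMCT and 0 −CMCT reads, and the top of pre-stat log phase was at 634045, with 48 and 0. In pre-HS log phase the highest was 632922, with 28 and 1, and in stationary phase 634072, with 31 and 0. Position 632574, at rank 3 in pre-stat log phase with 42 and 0 reads, had 39 and 5 IVT reads in heat shock, which is also a high ratio. The fifth and sixth log2 ratios of HSC82 were 3.81 and 3.77 in heat shock, so the ranks fall off without a gap.

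In HSP82 the highest position of heat shock was 98361, with 22 +CMCT and 1 −CMCT reads. That of stationary phase was 96486, with 90 and 1, that of pre-HS log phase was 98161, with 33 and 1, and that of pre-stat log phase was 98405, with 42 and 0. The last is the mirror of HSC82 position 632574, and over all libraries the reads at both differed by 1 of 275, so these reads cannot be assigned to either gene. Position 96823, at rank 3 in heat shock with 40 and 3, had all 16 counts in common with HSC82 position 634144. In HSP104 the highest positions were 90918 in heat shock, with 23 and 1 reads, and 91365 in stationary phase, with 32 and 0. They were 90510 in pre-HS log phase, with 32 and 1, and 91291 in pre-stat log phase, with 23 and 2.

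In HSC82 105 positions were high in at least 2 experiments, 24 in at least 3 and 7 in all 4. In HSP82 the numbers were 17, 1 and 1, and in HSP104 12, 0 and 0. HSP82 positions 96802, 96823, 96835, 96841, 96850, 97578, 97581, 97582 and 98405 had the same natural counts as positions among the 105 of HSC82. The reads at these positions are counted at both genes. Of HSC82 895, of HSP82 270 and of HSP104 118 positions had enough reads to be ranked in at least 2 experiments. Of these 11.7%, 6.30% and 10.2% were high in at least 2, beside 18.6% of all such positions of the table, where repeated positions count more than 1 time. Over all such positions 3% were high in at least 3 experiments and 0.584% in all 4. Of the recurrent positions 47 of 105 in HSC82, 12 of 17 in HSP82 and 12 of 12 in HSP104 lay in the third at the 3′ end, as did 41.8%, 59.6% and 91.5% of the positions ranked in at least 2 experiments. Position 634177 of HSC82, high in all 4, was named after its values were seen. It had 88 and 10 natural reads in heat shock and 24 and 1 in stationary phase. In pre-HS log phase it had 80 and 15, and in pre-stat log phase 45 and 7. Its IVT reads were 39 and 1, 6 and 10, 24 and 3, and 9 and 3 in the same order, so a high ratio was seen in IVT as well. The position high in all 4 experiments of HSP82 was 96823, which is also shared with HSC82.

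The ratio was then compared between natural and IVT RNA over heat shock and both log-phase experiments, by edgeR's quasi-likelihood test on 467058 positions with each RNA as a block. The test passed at 0 of 1946 HSC82, 0 of 1538 HSP82 and 0 of 1461 HSP104 positions. Over all positions 0.00214% were called with natural above IVT and 0.0116% with IVT above natural. DESeq2 called 1 member position, with IVT above natural. At an unadjusted p under 0.05 natural was higher at 0, 1 and 1 member positions and IVT at 114, 206 and 166. Over all 467058 positions the numbers were 4982 with natural and 7779 with IVT higher. The lowest adjusted p of a member was 0.0530, at HSP82 position 96760, chosen after its value was seen, with a log2 difference of -6.57 (standard error 1.47). The median log2 difference was -1.04 in HSC82, -2.57 in HSP82 and -2.40 in HSP104, beside 0.02 over all positions. Without the pre-HS experiment the medians were -0.16, -0.45 and -0.10, beside -0.11 over all positions. At an unadjusted p under 0.05 natural was then higher at 11, 2 and 2 of 1755, 529 and 395 positions. IVT was higher at 20, 5 and 2 of them. Over all 392322 positions the numbers were 3521 with natural and 4899 with IVT higher. The HSC82 site had a log2 difference of 2.44 (standard error 1.42, adjusted p = 1), and 2.99 (1.67) without pre-HS.

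Because 1 of the IVT libraries stands apart, the natural libraries of the same 3 experiments were also compared alone, +CMCT against −CMCT with experiment as a block, a choice made after the data were seen. This asks for a CMCT-dependent excess and leaves the IVT control out. The excess passed edgeR's quasi-likelihood test at 54 of 1946 HSC82 positions, 12 of 1538 HSP82 positions and 4 of 1461 HSP104 positions, beside 0.794% of all positions. The opposite direction passed at 6, 1 and 0, beside 0.289%. Without the pre-HS experiment the excess passed at 3 of 1755, 0 of 529 and 0 of 395 positions, beside 0.198% of all positions, and the opposite direction at 0, 0 and 0, beside 0.0586%. At an unadjusted p under 0.05 the excess was then present at 137, 19 and 8 positions and the opposite at 20, 8 and 0. Over all 392322 positions the numbers were 16948 and 5646. More reads per position make more calls possible, and the part of read depth in these counts was not tested. In HSC82 the log2 excess of the 54 ranged from 1.29 to 3.72, with a median of 2.35. The highest was the site at 632425 (standard error 0.63, and 4.66 with 0.87 without pre-HS). Natural ratios in these libraries chose the site, so its place among the 54 is a description and no p is given.

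Of the 12 HSP82 positions 4 had the same 6 natural counts as a called HSC82 position, so they stand for 1 set of reads counted at both genes. The HSP82 position 98256, with 4 and 1 reads in heat shock, 52 and 3 in pre-HS and 5 and 0 in pre-stat log phase, had a log2 excess of 3.36 (standard error 0.89). The 4 HSP104 positions, named after their values were seen apart from 90510, were 88908, 90510, 90865 and 90919. Position 88908 had 6 and 0 reads in heat shock, 10 and 0 in pre-HS and 16 and 0 in pre-stat log phase. Position 90510 had 8 and 0, 32 and 1, and 4 and 0 in the same order, with a log2 excess of 4.77 (standard error 1.17). Both 98256 and 90510 were named for their natural ratios in these libraries, so their values are a description and no p is given. The IVT reads of 90510 were 6 and 1 in heat shock, 2 and 0 in stationary phase, 35 and 3 in pre-HS and 0 and 0 in pre-stat log phase. The pre-HS IVT ratio carries the difference between those libraries given above.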

How the data were processed

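The authors aligned reads to the yeast genome with Bowtie (version 0.12.5 and build sacCer3 in the submitters' processing notes) with at most 2 mismatches, and deposited raw counts of reads per position in 16 libraries, without strand, base or normalization. The methods state that reads with several matches were assigned at random, yet 200918 of 383847 positions with at least 50 reads have the counts of another position. The deposited log-phase columns are named by the later treatment of the culture and not by replicate number, so they were used as log-phase replicates without a number. All values were computed from these counts. 0 columns of per-sample values were left out.

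Members, lists and named positions were chosen with earlier results of these data known. Named positions were the 5 highest ratios per member and natural experiment, with at least 20 natural reads, and the HSC82 site. Mirrored positions and the neighbour 632424 were added for their place. Positions 634177, 96760, 88908, 90865, 90919 and some recurrent HSP82 positions were added after their values were seen. Names and gene intervals came from the RefSeq R64 table. Listed positions were offset by 1 to 4 nt from it in the gene pairs checked, so it was used for gene sums alone, with intervals trimmed by 50 nt as an alternative, and positions are printed as listed. No genome, promoter or protein sequence was used here.

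Gene sums with at least 50 natural reads and positions with at least 10 were tested with edgeR 4.0.16 (quasi-likelihood, TMM, Benjamini-Hochberg, adjusted p under 0.05) in R 4.3.3, with DESeq2 1.42.0 as an alternative. In the position test positions of equal counts were taken once, and each RNA, split by the study into +CMCT and −CMCT parts, was a block. Stationary phase was left out of it, as in the study. Per the methods each log-phase sample shares its culture with the heat shock or the stationary sample, so samples are not fully independent. In the position test p-values may be understated, and in the test of gene sums they may be off in either direction. Totals ranged from 3925245 to 25759455 reads. Intervals and counting errors cover counting alone. Without strand, reads of overlapping antisense RNA cannot be told apart.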

Additional observations from a re-analysis of the deposited data

How the results depend on the processing

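No paired analysis was possible for the gene sums because heat shock and stationary phase have 1 sample each. The heat shock comparison called 0 genes under every setting. In the stationary comparison, 88 genes were called, against 0 with library totals alone, with no filter on low counts or with the −CMCT libraries alone, 55 with the +CMCT libraries alone, 332 with DESeq2 and 999 with IVT RNA, and no member was called in any. Library totals alone moved the median of all genes to -0.76 (log2) in stationary phase. Leaving out 1 log-phase culture gave log2 values of -1.46 to 0.45 for HSC82 and -3.28 to 0.16 for HSP82 in heat shock, and -2.48 to 0.97 for HSP82 and -1.15 to 2.35 for HSP104 in stationary phase, the higher value each time without the pre-HS culture.

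The comparison of natural and IVT ratios called 64 positions with the replicate block and 172 with no replicate block. It called 34 with library totals alone, 120 at 20 and 10 at 3 natural reads, 20 with all 4 experiments, 157 with DESeq2, 5060 with natural libraries alone and 1006 with these and without pre-HS. Leaving out 1 experiment gave 15 to 173. At the members 0 to 3 positions were called in the settings with IVT, each with IVT above natural.

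Positions with a high ratio at the members numbered 145, 353, 259 and 193 in heat shock, stationary, pre-HS and pre-stat log phase. They became 9, 72, 11 and 21 with 10 reads added, 68, 20, 110 and 71 scaled for totals, 26, 117, 46 and 20 at 50 reads, and 267, 623, 472 and 472 at 10 reads. The shares over all positions given above hold for the main setting alone. The counts under the other settings are therefore no result about these genes. The HSC82 fold between its highest and lowest natural library was 16.7, and 8.51 with equal positions taken once. The causes were not tested. The share of HSC82 reads equal to HSP82 reads changed by less than 1.5 times.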
